A study of Mus musculus with 18 samples.

Results

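The 57 genes described here act in G2 and in mitosis, and their messenger RNA was followed in blood stem and progenitor cells of the mouse that carry a mutated Dnmt1, the methyltransferase that restores DNA methylation after replication. They were chosen by symbol, with no threshold on a measured value. All 57 were found among the 29717 gene symbols of the count tables, and 54 had at least 1 count in every one of the 18 libraries. Lineage-negative bone marrow of BALB/c mice was sorted into the populations labelled HSC, MPP1 and MPP4, names in common use for haematopoietic stem cells and for early and lymphoid-primed multipotent progenitors. Controls are labelled wild type. The mutants are written dnmt1-/- in the genotype field, whereas the series text speaks of a missense, hypomorphic mutation made after those of fish, so the allele is called mutant here. There were 3 control and 3 mutant libraries of HSC, 2 and 2 of MPP1 and 4 and 4 of MPP4, and the labels give no age, sex or number of animals per library. HSC replicate 1 was sequenced in batch A and replicates 2 and 3 in batch C, all MPP1 libraries in batch C, and MPP4 replicates 1 and 2 in batches A and B and replicates 3 and 4 in batch C.

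In G2 the cell has copied its DNA and gathers the machinery for division. Cyclin A and cyclin B activate Cdk1, Polo-like and Aurora kinases drive spindle assembly, and the spindle checkpoint holds the cell in metaphase until every kinetochore is attached. The anaphase-promoting complex (APC/C) with Cdc20 and Ube2c then marks cyclin B and securin for destruction, and the central spindle directs cytokinesis. Many of these genes are transcribed together late in the cycle, through promoters that hold a cell cycle genes homology region (CHR), bound by the DREAM complex and by B-Myb with Foxm1, and CCAAT boxes bound by NF-Y. Haematopoietic stem cells are known to be mostly out of cycle, and multipotent progenitors to divide more often.

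Because the members are known to share such promoters, the sequences of 6 are shown, from RefSeq (GRCm38.p6), each reaching from the bases before the annotated start to 20 bases after it, 120 in all, 5′ to 3′ along the gene. Capitals mark CHR letters (TTTGAA or TTCGAA, on either strand, so that TTCAAA is the reverse form) and CCAAT (or ATTGG on the other strand). The windows are chr10:69352893-69353012, minus strand for Cdk1, chr9:70421535-70421654, minus strand for the B-type cyclin Ccnb2, chr4:118437324-118437443, minus strand for the APC/C activator Cdc20, chr2:164769829-164769948, plus strand for the ubiquitin-conjugating enzyme Ube2c, chr9:61946780-61946899, minus strand for the cytokinesis motor Kif23, and chr1:181842382-181842501, minus strand for the lamin B receptor Lbr. The first 4 stand for the kinase, its cyclin and the machinery that ends cyclin B, and Kif23 and Lbr are shown because their mutant differences stood apart from those of most members.
Cdk1: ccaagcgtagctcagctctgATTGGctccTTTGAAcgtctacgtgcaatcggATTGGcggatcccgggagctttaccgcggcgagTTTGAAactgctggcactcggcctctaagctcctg
Ccnb2: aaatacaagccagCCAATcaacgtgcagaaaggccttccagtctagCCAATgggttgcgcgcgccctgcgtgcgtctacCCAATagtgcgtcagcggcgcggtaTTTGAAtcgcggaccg
Cdc20: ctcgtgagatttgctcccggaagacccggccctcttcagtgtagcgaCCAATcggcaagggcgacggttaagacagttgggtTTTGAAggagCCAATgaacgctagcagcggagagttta
Ube2c: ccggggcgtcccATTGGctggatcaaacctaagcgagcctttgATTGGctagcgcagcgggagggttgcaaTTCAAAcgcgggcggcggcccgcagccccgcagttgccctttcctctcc
Kif23: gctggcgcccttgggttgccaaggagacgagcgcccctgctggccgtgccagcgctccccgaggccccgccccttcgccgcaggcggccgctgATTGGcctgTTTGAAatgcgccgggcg
Lbr: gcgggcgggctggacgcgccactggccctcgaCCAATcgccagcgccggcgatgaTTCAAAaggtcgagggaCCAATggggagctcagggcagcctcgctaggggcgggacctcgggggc
In the Cdk1 window CHR letters began at positions −71 and −15 from the start, and CCAAT boxes in reverse form at −80 and −48. Ccnb2 held 3 CCAAT boxes, at −87, −54 and −21, and CHR letters at position 5 after the start. Cdc20, Ube2c, Kif23 and Lbr held both kinds of letters as well. Members without these letters were not set beside the 6, so whether the letters go with the mutant differences was not tested.

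Promoters of 47 of the 57 members were in the RefSeq table, and the first entry was used where a symbol had more than 1. A CHR was found anywhere in the table's windows, which run from well before to 50 bases after the start, of 37 of them (78.7%), compared with 8 of 51 genes of an S phase list (15.7%) and 5254 of 27025 genes overall (19.4%). Within 60 bases before to 20 after the start the shares were 51.1% (24 members), 5.88% (3 S phase genes) and 4.47% (1209 genes). CCAAT stood in 83% of the members' windows, 62.7% of the S phase windows and 37.9% of all windows. These are counts of letters, and whether a factor binds there was not measured. The members without an entry were Ccna2, Cdc25c, Aurkb, Pbk, Ska1, Tpx2, Dlgap5, Kif20a, Smc4 and Cdca2.

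Levels are given in CPM, the usual depth-scaled count unit, after TMM scaling of the library totals, and values are listed in the order of the replicate numbers. Depth ran from 354642 to 1943562 counts per library, and the members together took 0.24% to 1.1% of the counts. Markers of the populations were checked: 13 stem cell markers summed to 2070 to 3293 CPM in HSC controls and up to 1500 CPM in MPP4 controls, and 7 lymphoid-priming markers to 160 to 285 and 2044 to 3307 CPM. In HSC mutants the stem cell markers summed to 1241, 2260 and 3015 CPM, against 2070, 3197 and 3293 in HSC controls, lower within each batch. Slamf1 and Vwf went the other way, with means of 77.2 and 50.97 CPM in HSC mutants and 55.9 and 29.5 in HSC controls, both with overlap. The other stem cell markers had lower means in the mutants. The 3 progenitor markers Kit, Ly6a and Cd34 summed to 660, 557 and 709 CPM in HSC mutants and 908, 832 and 742 in HSC controls, with no overlap. In MPP1 controls the stem cell markers summed to 2185 to 2936 CPM and the lymphoid-priming markers to 225 to 247, so these lists did not separate MPP1 from HSC. In MPP4 mutants the stem cell markers summed to 596, 592, 1697 and 918 CPM, against 1023, 734, 1500 and 1259 in MPP4 controls. The lymphoid-priming markers summed to 2826, 1495, 2217 and 2335 CPM in MPP4 mutants and 2072, 3307, 2317 and 2044 in MPP4 controls, and both lists overlapped. Markers of other cells, in lists for erythroid, B, T, neutrophil, monocyte and basophil or mast cells, were high in single libraries and passed 10000 CPM in 6 of the 18. Erythroid markers reached 16077 CPM in HSC mutant 1, 31610 in MPP1 control 2, 41894 in MPP4 control 4 and 233720 in MPP4 mutant 2, where neutrophil markers also summed to 39540 CPM. B cell markers reached 35206 CPM in HSC control 1 and 11896 in MPP4 mutant 3. Counts of members past a threshold are also given without these 6 libraries, except for MPP4 against HSC in mutants. Neutrophil markers summed to 2265 and 8968 CPM in MPP1 controls and 997 and 1431 in MPP1 mutants. Monocyte markers summed to 428 and 740 CPM in MPP1 controls and 234 and 381 in MPP1 mutants, both lists with no overlap. B cell markers went the other way, at 36.4 and 38.1 against 74.5 and 45 CPM. The part of these shifts in the MPP1 result was not tested. Dnmt1 itself stood at 98.8, 216 and 270.1 CPM in HSC controls and 119, 309 and 292 in HSC mutants, at 297 and 285 in MPP1 controls and 216 and 285 in MPP1 mutants, and at 249, 341, 354 and 374 in MPP4 controls and 259, 228, 313 and 324 in MPP4 mutants. Its mutant and control values overlapped in HSC and MPP4, both MPP1 mutants were lower, and the differences were 0.28, −0.18 and −0.22 on the log2 scale. The transcript level does not check a missense allele.

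As a mean over the 57 members, these genes were lowest in HSC controls and highest in MPP4 mutants. The mean log2 CPM was 4.85, 5.23 and 5.25 in HSC controls and 5.69, 5.997 and 5.63 in HSC mutants. In MPP1 it was 5.85 and 6.01 in controls and 5.37 and 5.79 in mutants, and in MPP4 6.01, 6.32, 6.34 and 6.37 in controls and 6.91, 6.72, 6.86 and 7.05 in mutants. Mutants stood above controls in HSC and in MPP4 and below them in MPP1, with no overlap between the genotypes in any of the 3 populations. The group means were 5.11 ± 0.22 and 5.77 ± 0.20 in HSC (SD, n = 3 each), 5.93 ± 0.11 and 5.58 ± 0.29 in MPP1 (n = 2 each), and 6.26 ± 0.17 and 6.89 ± 0.14 in MPP4 (n = 4 each). Ordered by group mean, HSC controls came first, then MPP1 mutants, HSC mutants, MPP1 controls, MPP4 controls and MPP4 mutants. The ranges of MPP1 mutants and HSC mutants overlapped, as did those of HSC mutants and MPP1 controls, so neighbours in the middle of that order did not differ beyond their spread. MPP1 control 2 (6.012) and MPP4 control 1 (6.015) lay side by side. In HSC the mutants that had higher member means had lower stem cell and progenitor marker sums than the controls of their batch, and the part of that shift in the result was not tested. In bulk RNA, more cells in G2 or mitosis and more of this RNA per cell cannot be told apart.

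**Figure D1:**
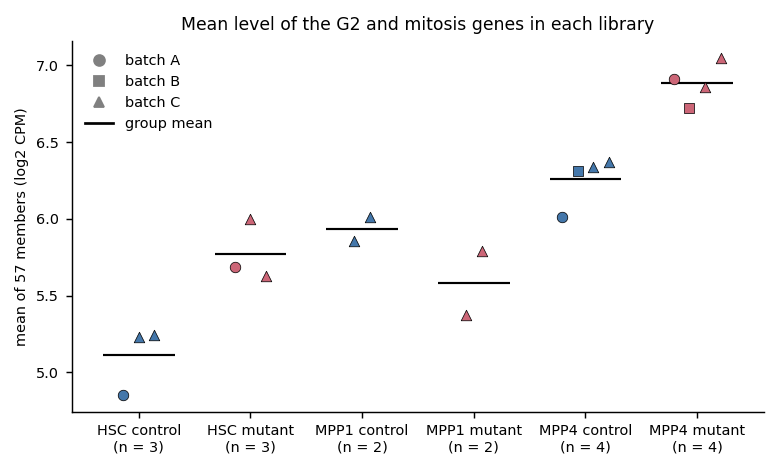
Mean log2 CPM of the 57 members (vertical axis) in each of the 18 libraries, by population and genotype, with the symbol giving the sequencing batch and the line the group mean. The HSC and MPP4 mutants all lie above their controls, and the MPP1 mutants lie below theirs.

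Within sequencing batches the mutant minus control difference of this mean was 0.83 in batch A and 0.57 in batch C for HSC. It was 0.90 in batch A, 0.40 in batch B and 0.60 in batch C for MPP4, and −0.35 for MPP1, which has batch C alone. Gene by gene on log2(CPM + 1), mutants were higher for 52 of 57 members in HSC batch A and 50 in batch C, for 56, 48 and 53 in MPP4 batches A, B and C, and for 12 in MPP1. The sign of the mean was thus the same in every batch that held a population. Column names carry ID numbers that recur across populations, though the labels do not say what they number, and within an ID number MPP4 exceeded HSC by 1.16, 1.11 and 1.13 in the 3 controls and by 1.23, 1.05 and 1.23 in the 3 mutants. MPP1 exceeded HSC by 0.62 and 0.77 in the 2 controls and differed from it by −0.21 and −0.26 in the 2 mutants.

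**Figure D2:**
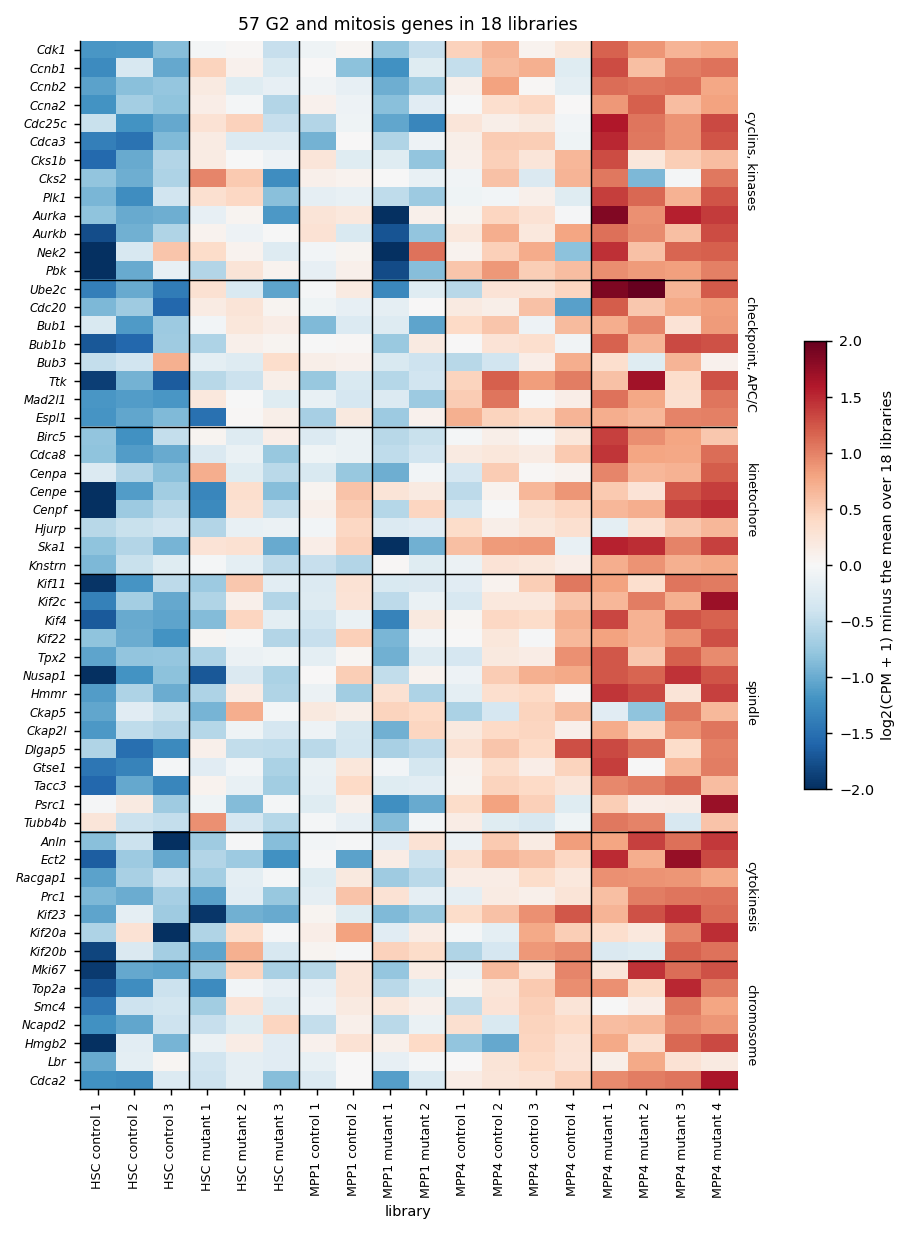
Levels of the 57 members (rows, grouped by role) in 18 libraries (columns), as log2(CPM + 1) minus the gene's mean over all libraries, with colour limits at 2 above and below. Most rows pass from blue in HSC controls to red in MPP4 mutants, and Bub3, Lbr, Hjurp and Tubb4b show less contrast.

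The first group holds 13 cyclins, mitotic kinases and entry factors: Cdk1, Ccnb1, Ccnb2, Ccna2, Cdc25c, Cdca3, Cks1b, Cks2, Plk1, Aurka, Aurkb, Nek2 and Pbk. Cks1b and Cks2 bind Cdk1, Cdc25c activates it, and Nek2 helps to separate the centrosomes. In HSC 12 of 12 tested members of the group were higher in mutants, with a median log2 difference of 0.94 and a range of 0.60 to 1.23. Among the MPP1 libraries the count was 1 of 11 (median −0.52, range −1.23 to 0.22), and in MPP4 13 of 13 (median 0.80, range 0.29 to 1.26). Differences are edgeR log2 fold changes of mutant against control, and how many passed the test is given with each comparison further on. Cdk1, the kinase that starts mitosis, stood at 59.3, 59.8 and 73.4 CPM in HSC controls and 129, 135 and 96.4 in HSC mutants. In MPP1 the values were 126 and 138 CPM in controls and 77.1 and 96.2 in mutants, and in MPP4 185, 216, 141 and 157 in controls and 304, 247, 215 and 224 in mutants. All HSC mutants lay above and both MPP1 mutants below their controls, while MPP4 mutant 3 lay just under MPP4 control 2. The differences for Cdk1 were 0.91, SE 0.26 in HSC, −0.55, SE 0.28 in MPP1 and 0.52, SE 0.20 in MPP4.

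Ccnb1, the cyclin B that activates Cdk1, stood at 19.8, 38.99 and 23.6 CPM in HSC controls and 66.99, 51.7 and 39.2 in mutants. MPP1 values were 49.04 and 27.2 in controls and 20.6 and 40.95 in mutants, and MPP4 values 34.8, 75.8, 80.3 and 41.1 in controls and 122, 74.5, 100.1 and 104 in mutants. The highest HSC control and the lowest HSC mutant lay next to each other (38.99 and 39.20 CPM), and the others overlapped, for differences of 0.85, −0.31 and 0.80 in HSC, MPP1 and MPP4. Ccna2, the cyclin A of S phase and G2, stood at 47.8, 68.9 and 62.9 CPM in HSC controls and 121, 109 and 73.5 in mutants, at 117 and 103 in MPP1 controls and 61.7 and 94.2 in MPP1 mutants, and at 110.7, 141, 149 and 112.1 in MPP4 controls and 204, 255, 170.2 and 196 in MPP4 mutants. It was parted between genotypes in all 3 populations, upward in HSC (0.73, SE 0.27) and MPP4 (0.69, SE 0.20) and downward in MPP1 (−0.46, SE 0.30). Of all genes, 5.06% were parted upward in HSC, 1.32% upward in MPP4 and 19.3% downward in MPP1, which has 2 libraries a group.

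Plk1, the Polo-like kinase of spindle assembly and mitotic exit, stood at 23.1, 18.1 and 34.1 CPM in HSC controls and 56.1, 59.4 and 24.5 in mutants, which overlapped. In MPP1 it stood at 39.4 and 39.9 CPM in controls and 30.8 and 26.6 in mutants, the mutants lower. In MPP4 controls it stood at 41.8, 43.04, 47.7 and 37.4 CPM and in mutants at 118, 100.1, 72.6 and 108, every mutant above every control. In edgeR its difference in MPP4 was 1.24, SE 0.24, adjusted p = 0.051. Aurka, the Aurora kinase of centrosomes and spindle poles, stood at 14.8, 12.7 and 13.1 CPM in HSC controls and 23.5, 27.6 and 11.4 in HSC mutants. Its MPP1 values were 31.9 and 30.9 CPM in controls and 2.57 and 28.7 in mutants, and its MPP4 values 27.8, 36.02, 32.6 and 26.2 in controls and 98.3, 51.1, 80.1 and 71.97 in mutants. The MPP4 mutants were all above the controls (1.26, SE 0.27, adjusted p = 0.0778 in edgeR), and in MPP1 mutant 1 its value stands for 1 count. Aurkb, the Aurora kinase of the chromosomal passenger complex, stood at 9.88, 18.1 and 23.6 CPM in HSC controls and 38.02, 33.6 and 35.9 in HSC mutants. It stood at 44.6 and 29.04 in MPP1 controls and 10.3 and 20.5 in MPP1 mutants and at 41.8, 60.3, 42.1 and 63.5 in MPP4 controls and 78.9, 70.3, 55.1 and 90.6 in MPP4 mutants. HSC mutants were above and MPP1 mutants below their controls, and the MPP4 groups overlapped, with differences of 1.09, −1.23 and 0.58.

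The second group holds the spindle checkpoint proteins Bub1, Bub1b, Bub3, Ttk and Mad2l1, the APC/C partners Cdc20 and Ube2c, and the separase Espl1, which cuts cohesin. In HSC 7 of 8 tested members of the group were higher in mutants, with a median log2 difference of 1.02 and a range of −0.04 to 1.26. Among the MPP1 libraries the count was 4 of 8 (median −0.06, range −0.69 to 0.14), and in MPP4 8 of 8 (median 0.43, range 0.21 to 1.40). Ube2c, which attaches the first ubiquitin for the APC/C, stood at 51.1, 66.2 and 49.8 CPM in HSC controls and 166, 108 and 63.7 in HSC mutants. In MPP1 it stood at 132 and 151 in controls and 53.96 and 113 in mutants, and in MPP4 at 90.5, 162, 159.7 and 179 in controls and 489, 541, 215 and 315 in mutants. The MPP4 mutants were all above the controls and the MPP1 mutants below, and the highest value was that of MPP4 mutant 2, the library richest in erythroid transcripts. Without the libraries high in other cells' markers, mutant 2 among them, Ube2c differed in MPP4 by 1.70 (edgeR adjusted p = 0.08). With all libraries the difference was 1.40, SE 0.31, adjusted p = 0.154 in edgeR, the widest of the 57 in MPP4.

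Cdc20, the activator of the APC/C, stood at 21.4, 24.5 and 13.1 CPM in HSC controls and 46.2, 49.1 and 42.5 in HSC mutants, with no overlap. It stood at 38.6 and 36.3 in MPP1 controls and 35.97 and 40.95 in MPP1 mutants and at 46.2, 44.4, 61.99 and 18.7 in MPP4 controls and 95.7, 59.6, 70.1 and 73.7 in MPP4 mutants, both with overlap. Its differences were 1.12, SE 0.33 in HSC, 0.07 in MPP1 and 0.72, SE 0.27 in MPP4. Bub1b, the BubR1 protein that blocks Cdc20 until chromosomes are attached, stood at 11.5, 12.7 and 23.6 CPM in HSC controls and 25.3, 42.2 and 40.8 in mutants. The MPP1 values were 39.4 and 39.9 in controls and 23.1 and 45.05 in mutants, and the MPP4 values 39.9, 48.2, 50.1 and 37.4 in controls and 90.5, 63.9, 100.1 and 96.5 in mutants. It was parted upward in HSC (1.26, SE 0.38) and MPP4 (0.96, SE 0.24). Bub3, a checkpoint protein also found in interphase complexes, stood between 106 and 258 CPM over all libraries and had a difference of −0.04 in HSC.

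The third group holds the passenger complex subunits Birc5 (survivin) and Cdca8 (borealin), the centromeric histone Cenpa and its chaperone Hjurp, the kinetochore motor Cenpe, the kinetochore and matrix protein Cenpf, and Ska1 and Knstrn, which bind kinetochores to microtubules. In HSC 8 of 8 tested members of the group were higher in mutants, with a median log2 difference of 0.69 and a range of 0.16 to 0.81. Among the MPP1 libraries the count was 2 of 8 (median −0.23, range −2.11 to 0.44), and in MPP4 8 of 8 (median 0.77, range 0.07 to 0.99). Birc5 stood at 60.9, 45.3 and 76.04 CPM in HSC controls and 109.5, 87.8 and 116 in mutants, at 87.7 and 96.2 in MPP1 controls and 71.9 and 77.8 in MPP1 mutants, and at 103, 115, 106 and 123 in MPP4 controls and 275, 202, 183 and 155 in MPP4 mutants. Like Ccna2 it was parted in all 3 populations, upward in HSC (0.80, SE 0.27) and MPP4 (0.87, SE 0.22) and downward in MPP1 (−0.25, SE 0.30). The MPP1 difference was less than its SE, and 19.3% of all genes were parted downward there. Cenpe stood at 16.5, 30.8 and 41.95 CPM in HSC controls and 27.2, 86.1 and 37.6 in mutants, at 71.3 and 102 in MPP1 controls and 82.2 and 77.8 in MPP1 mutants, and at 47.5, 72.04, 109 and 127.02 in MPP4 controls and 98.3, 83.03, 165 and 180.3 in MPP4 mutants. Its genotypes overlapped in every population. Ska1 had no count in MPP1 mutant 1, where 3 counts stand for 7.71 CPM, and 23.03 and 29.04 CPM in MPP1 controls, so its difference in MPP1 (−2.11, SE 0.76) is a fitted value at low depth. Hjurp had the smallest difference of all members in MPP4 (0.07).

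The fourth group holds 14 spindle motors and microtubule proteins: Kif11, Kif2c, Kif4, Kif22, Tpx2, Nusap1, Hmmr, Ckap5, Ckap2l, Dlgap5, Gtse1, Tacc3, Psrc1 and Tubb4b. Kif2c takes microtubules apart, Kif4 and Kif22 are chromosome-bound motors, Tpx2 activates Aurka, and Ckap5 with Tacc3 promotes microtubule growth. In HSC 12 of 13 tested members of the group were higher in mutants, with a median log2 difference of 0.63 and a range of −0.33 to 1.17. Among the MPP1 libraries the count was 3 of 12 (median −0.25, range −0.42 to 0.30), and in MPP4 14 of 14 (median 0.71, range 0.17 to 1.04). Kif11, the motor that pushes spindle poles apart, stood at 14.8, 26.3 and 41.95 CPM in HSC controls and 36.2, 88.7 and 52.3 in mutants. It stood at 49.8 and 74.4 in MPP1 controls and 48.8 and 49.1 in MPP1 mutants and at 51.9, 63.6, 85.8 and 127.02 in MPP4 controls and 106, 76.6, 127.6 and 125 in MPP4 mutants. The MPP1 mutants were below their controls, and in HSC the batch A mutant lay below a batch C control although it exceeded its batch A control. The HSC difference was 1.17, SE 0.33, adjusted p = 0.205 in edgeR. Nusap1, which bundles spindle microtubules, stood at 14.8, 36.3 and 47.2 CPM in HSC controls and 25.3, 68.9 and 53.9 in mutants, at 84.7 and 118 in MPP1 controls and 59.1 and 88.04 in MPP1 mutants, and at 78.5, 119, 138 and 142 in MPP4 controls and 199, 189, 230.2 and 202 in MPP4 mutants. It was parted in MPP4 alone (0.83, SE 0.21). Tubb4b, a beta tubulin with uses outside mitosis, stood at 351, 220.3 and 212 CPM in HSC controls and 557, 235 and 199 in mutants, at 289.8 and 265 in MPP1 controls and 162 and 285 in MPP1 mutants, and at 328, 249, 237 and 280.2 in MPP4 controls and 615, 589.8, 238 and 442 in MPP4 mutants. It was above every control of its population in HSC mutant 1 and in MPP4 mutants 1, 2 and 4, and below every control in HSC mutant 3 and MPP1 mutant 1. Psrc1, a spindle regulator, had a difference of −0.33 (SE 0.51) in HSC.

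The cytokinesis group holds Anln, Ect2, Racgap1, Prc1, Kif23, Kif20a and Kif20b, which build the contractile ring and the central spindle. Anln is a scaffold of the ring, and Prc1 bundles the microtubules between the poles. In HSC 6 of 7 tested members of the group were higher in mutants, with a median log2 difference of 0.35 and a range of −0.73 to 0.76. Among the MPP1 libraries the count was 3 of 7 (median −0.11, range −0.71 to 0.43), and in MPP4 7 of 7 (median 0.66, range 0.22 to 0.89). Kif23, the motor of the centralspindlin complex with Racgap1, had a difference of the opposite sign to the rest of the group in HSC. It stood at 41.2, 76.2 and 52.4 CPM in HSC controls and 21.7, 43.9 and 42.5 in HSC mutants, at 89.9 and 72.6 in MPP1 controls and 46.2 and 51.2 in MPP1 mutants, and at 112.001, 131, 163 and 205 in MPP4 controls and 138, 211, 240.2 and 189.7 in MPP4 mutants. HSC mutant 1 was lowest, and the other 2 HSC mutants lay just above the lowest control but under both controls of their own batch. In edgeR the differences were −0.73, SE 0.29, adjusted p = 0.415 in HSC and −0.71, SE 0.32, adjusted p = 0.991 in MPP1, against 0.37 in MPP4. Racgap1, its partner, differed by 0.40 in HSC, −0.55 in MPP1 and 0.66 in MPP4, and stood at 89.9, 89.8, 104 and 93.4 CPM in MPP4 controls and 153, 151, 150.1 and 137 in MPP4 mutants, with no overlap.

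The last group holds the proliferation marker Mki67, which coats mitotic chromosomes, the topoisomerase Top2a, the condensin subunits Smc4 and Ncapd2, the chromatin proteins Hmgb2 and Cdca2, and the lamin B receptor Lbr of the nuclear envelope. In HSC 7 of 7 tested members of the group were higher in mutants, with a median log2 difference of 0.59 and a range of 0.10 to 1.07. Among the MPP1 libraries the count was 3 of 7 (median −0.09, range −0.44 to 0.15), and in MPP4 7 of 7 (median 0.55, range 0.11 to 1.17). Mki67 stood at 82.4, 153 and 149 CPM in HSC controls and 190.1, 420.2 and 198 in HSC mutants, with no overlap. It stood at 212 and 368 in MPP1 controls and 182 and 344 in MPP1 mutants and at 287, 485, 382 and 613 in MPP4 controls and 367, 852, 676 and 757 in MPP4 mutants, both with overlap. Its difference in HSC, 1.07, SE 0.26, adjusted p = 0.0846 in edgeR, had the smallest p of the members there. With the replicate number as a block it passed (1.03, SE 0.24, edgeR adjusted p = 0.0233), though the labels name no pairs of control and mutant libraries.

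Top2a, which untangles DNA before division, stood at 158, 223 and 391 CPM in HSC controls and 219, 506 and 472 in mutants, at 469 and 621 in MPP1 controls and 362 and 444 in MPP1 mutants, and at 549, 619.8, 757 and 1009 in MPP4 controls and 994, 683, 1496 and 1079 in MPP4 mutants. It was parted in MPP1 alone, where the mutants were lower (−0.40, SE 0.26). Hmgb2, a DNA-bending chromatin protein, stood at 64.2, 223 and 136 CPM in HSC controls and 239.9, 288 and 220.5 in mutants, at 276 and 316 in MPP1 controls and 277 and 342 in MPP1 mutants, and at 149, 127.7, 350.5 and 318 in MPP4 controls and 439.6, 326, 578 and 651 in MPP4 mutants. MPP4 control 3 lay above MPP4 mutant 2, but within each batch every mutant exceeded the controls, and the edgeR difference in MPP4 was 1.17, SE 0.22, adjusted p = 0.0502. Lbr, which tethers chromatin to the nuclear membrane, stood at 93.9, 166 and 197 CPM in HSC controls and 147, 169 and 163 in mutants, at 172 and 192 in MPP1 controls and 169.6 and 186 in MPP1 mutants, and at 191, 228, 253 and 232 in MPP4 controls and 207, 324, 233 and 215 in MPP4 mutants. It differed by 0.10, 0.01 and 0.11 in HSC, MPP1 and MPP4, each less than its SE, and its sign turned in some alternatives in all 3 populations.

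**Figure D3:**
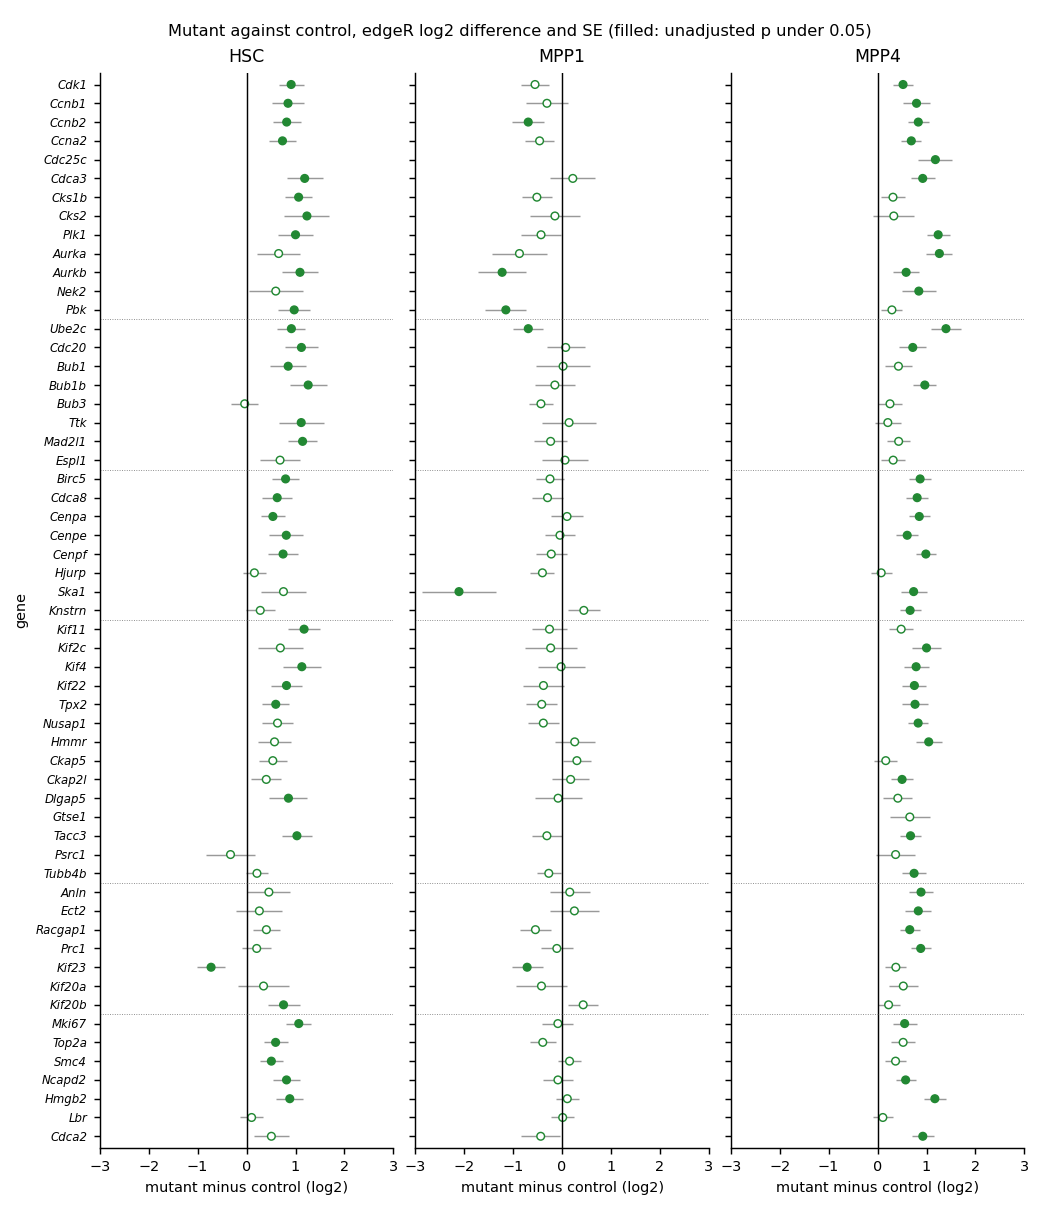
Mutant minus control log2 difference (horizontal axis) with its SE for each member in HSC, MPP1 and MPP4, from edgeR, with points filled where the unadjusted p is under 0.05. Nearly all points lie right of 0 in HSC and all do in MPP4, and most lie left of 0 in MPP1, and no point passes after adjustment over all genes.

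In HSC, 52 of 55 tested members were higher in mutants, with a median log2 difference of 0.75, compared with 51.3% of all 9147 tested genes higher and a median of 0.01. The 3 that were lower were Bub3, Psrc1 and Kif23. Cdc25c and Gtse1 did not pass the filter on low counts, and Cdc25c stood at 8.24, 4.53 and 5.24 CPM in controls and 14.5, 16.4 and 8.17 in mutants and Gtse1 at 3.29, 3.63 and 10.5 in controls and 9.05, 10.3 and 6.53 in mutants. With no filter, 54 of 57 were higher. No member passed the threshold in edgeR (adjusted p under 0.05 over all tested genes, the call rule used throughout) or in DESeq2, beside 0.241% of all genes in edgeR. At an unadjusted p under 0.05, 33 members were higher and 1, Kif23, was lower, beside 5.84% and 4.18% of all genes. Every HSC mutant exceeded every control for 21 members and none was parted downward, beside 5.06% and 4.33% of all genes.

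Members of several roles had differences over 1 in HSC, among them the checkpoint protein Bub1b (1.26), the Cdk1-binding protein Cks2 (1.23), the mitotic entry factor Cdca3 (1.19), the motor Kif11 (1.17), the checkpoint protein Mad2l1 (1.14) and Cdc20 (1.12). Calls appeared in some other fits with edgeR: 4 members with no filter (Cks1b, Mad2l1, Mki67 and Hmgb2), 3 without HSC mutant 3 (Ube2c, Kif11 and Mki67), 1 without HSC control 2 (Hmgb2) and 1 with the replicate block (Mki67). In these fits 0.532%, 0.820%, 0.600% and 0.437% of all genes passed. Without HSC control 1 and mutant 1, the pair with the most B cell and erythroid transcripts, no member passed and 48 of 55 were higher, with a median of 0.67.

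In MPP4, all 57 members were tested and all 57 were higher in mutants, with a median difference of 0.67, compared with 49.5% of the 9392 tested genes and a median of −0.0043. No member passed in edgeR, beside 0.0852% of all genes, and the smallest adjusted p was 0.0502, that of Hmgb2. DESeq2 called 5, namely Plk1, Aurka, Ube2c, Cenpf and Hmgb2, all higher, beside 0.298% of all genes. At an unadjusted p under 0.05 in edgeR, 37 were higher and none lower, beside 3.91% of all genes higher. Groups were parted upward for 22 members and downward for none, beside 1.32% and 1.65% of all genes. After Ube2c, the largest differences were those of Aurka (1.26), Plk1 (1.24), the Cdk1-activating phosphatase Cdc25c (1.18), Hmgb2 (1.17) and the spindle protein Hmmr (1.04).

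Calls in MPP4 also depended on the fit. With edgeR, Plk1 and Hmgb2 passed with DESeq2's size factors, with a stricter filter and with a spread shared over all libraries, beside 0.106%, 0.115% and 0.160% of all genes. With no filter Plk1, Aurka, Ube2c, Cenpf, Hmmr and Hmgb2 passed, beside 0.369%. Aurka passed without MPP4 control 2 and without MPP4 mutant 2, and Hmgb2 without MPP4 mutant 4, beside 0.214%, 0.191% and 0.182% of all genes. Without MPP4 control 4 and mutants 2 and 3, which were high in other cells' markers, 55 of 57 members were higher and the median was 0.88, with no call.

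In MPP1 the direction was the other one, with small sizes. Of 53 tested members, 37 were lower in mutants and 16 higher, with a median of −0.23 beside −0.0037 for the 8004 tested genes. Cdc25c, Nek2, Gtse1 and Psrc1 did not pass the filter, and with no filter 14 of 57 were higher. No member passed in edgeR or DESeq2, beside 0.225% of all genes, and 6 had an unadjusted p under 0.05, all lower, beside 2.17% of all genes lower. Those 6 were Ccnb2, Aurkb, Pbk, Ube2c, Ska1 and Kif23. With 2 libraries a group, 21 members were parted downward and 3 upward (Knstrn, Ckap5 and Kif20b), beside 19.3% and 14.6% of all genes. The median was −0.07 without MPP1 control 2, where erythroid markers summed to 31610 CPM and neutrophil markers to 8968, and 24 of 54 members were then higher. It was −0.12 without MPP1 mutant 1 and −0.41 without MPP1 mutant 2.

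The mutant differences of MPP1 and HSC were set against each other in 1 model over all 18 libraries. The MPP1 difference was the lower one for 53 of 57 members, with a median gap of −0.86. The other 4 were Nek2, Knstrn, Ect2 and Lbr. No member and no gene at all passed in edgeR, beside 0% of all genes, nor did a member with DESeq2, and 24 members had an unadjusted p under 0.05, all with the MPP1 difference lower, beside 2.96% of all genes. The gap was −2.07, SE 0.51, adjusted p = 0.441 for the mitotic kinase Pbk, −2.17 for Aurkb, −1.42 for Ccnb2 and −1.40 (SE 0.33) for Cdk1 in edgeR. For MPP4 against HSC the gap had a median of 0.03, with 30 of 57 members on the upper side. No member passed in edgeR or DESeq2, beside 0.0283%, and Kif23 (0.95) and Ttk (−1.03) had an unadjusted p under 0.05, beside 3.88%.

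Between control populations, the members were higher in MPP4 than in HSC. All 57 were higher, with a median of 1.13 beside 0.0002 for all genes, and 42 passed in edgeR, beside 5.82% of the 10613 tested genes called higher. Of the genes shown in every library, those with the smallest p were Mki67 (1.68, SE 0.21, adjusted p = 4.86e-07), Top2a (1.64, SE 0.20), Nusap1 (1.94, SE 0.26), Kif11 (1.69), Cenpe (1.68) and Cdk1 (1.33) in edgeR. Further ones by the rule were Kif23 (1.42), Ncapd2 (1.33), the spindle protein Tacc3 (1.52), the checkpoint kinase Ttk (2.18), Cks1b (1.39), Pbk (1.61), Mad2l1 (1.36) and Dlgap5 (1.73). Ttk had the widest difference, with 6.59, 13.6 and 7.87 CPM in HSC controls and 37.3, 63.2, 49.3 and 56.04 in MPP4 controls. The 15 that did not pass included Plk1 (0.90, edgeR adjusted p = 0.0575), Aurka (1.11), Cenpa (0.41), Bub3 (0.15) and Tubb4b (0.11). Leaving out all libraries that share the ID number with HSC control 2 gave 26, beside 2.55% of all genes called higher. The batch in place of the ID number gave 37, beside 3.95%, and that change together with leaving out the 6 libraries high in other cells' markers gave 17, beside 2.29%, with a median of 1.09.

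MPP1 controls lay between the others. Against HSC controls 54 of 57 members were higher (median 0.72), and 3 passed in edgeR: Cdk1 (1.07, SE 0.23, adjusted p = 0.0284), Ube2c (1.07, SE 0.24, adjusted p = 0.0414) and Nusap1 (1.34, SE 0.29, adjusted p = 0.0291), beside 0.207% of all genes called higher. The 3 that were lower were Bub3 (−0.09), Knstrn (−0.12) and Psrc1 (−0.04). None passed with DESeq2, and the count was 0 when the libraries numbered like HSC control 2, or those numbered like HSC control 3 were left out. It was also 0 with the batch in place of the ID number, with or without the 6 libraries. MPP4 controls exceeded MPP1 controls for 53 of 57 members (median 0.41), and 3 passed in edgeR: Ttk (1.57, SE 0.39, adjusted p = 0.0122), Kif23 (1.14, SE 0.25, adjusted p = 0.00366) and Mki67 (0.83, SE 0.23, adjusted p = 0.0365), beside 1.86%. The 4 that were lower were Cks2 (−0.06), Aurka (−0.09), Tubb4b (−0.16) and Prc1 (−0.0038). None passed when the libraries numbered like HSC control 2 were left out, or when the 6 libraries were left out and the batch took the place of the ID number.

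Among mutants, MPP4 again stood above HSC for every member, while MPP1 did not stand above HSC on the median. All 57 members were higher in MPP4 mutants than in HSC mutants (median 1.15) and 49 passed in edgeR, beside 7.04% of all genes. These 49 held 41 of the 42 called in controls (97.6% of the control list and 83.7% of the mutant list). The widest difference was that of Kif23 (2.37, SE 0.22, adjusted p = 9.19e-10 in edgeR), and others by the rule were Nusap1 (2.13), Ube2c (1.59), Top2a (1.64), Ect2 (2.31), the microtubule bundler Prc1 (1.56), Cenpf (1.59), Cdca2 (1.67), Cdca8 (1.48), the spindle assembly factor Tpx2 (1.38) and Racgap1 (1.15). The other 8 were Cks2, Nek2, Bub1, Bub3, Ckap5, Tubb4b, Kif20a and Lbr. Between MPP1 and HSC mutants 38 of 57 members were lower in MPP1 (median −0.14). No member passed in edgeR or DESeq2, beside 0.0471%, and 4 lower (Ccnb2, Aurkb, Pbk and Ska1) and 1 higher (Prc1) had an unadjusted p under 0.05, beside 7.40% of all genes in either direction. MPP4 mutants exceeded MPP1 mutants for all 57 (median 1.33), and 41 passed in edgeR, beside 3.03%. Kif23 (2.10, SE 0.28, adjusted p = 4.27e-06), Top2a (1.75), Ube2c (1.62), Pbk (2.24), Cdca2 (1.93), Ccnb2 (1.68), Tpx2 (1.66) and Cenpf (1.43) were among them in edgeR, as was Ska1 (3.04), a fitted value against a library with no count. All 41 were also among the 49. That count was 20 when the libraries numbered like HSC mutant 2 were left out (0.848% of all genes called higher), 20 for those numbered like HSC mutant 3 (1.02%), and 38 without the 6 libraries and with the batch in place of the ID number (2.22%). The 3 mutant comparisons share libraries with each other, as do the 3 control comparisons.

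**Figure D4:**
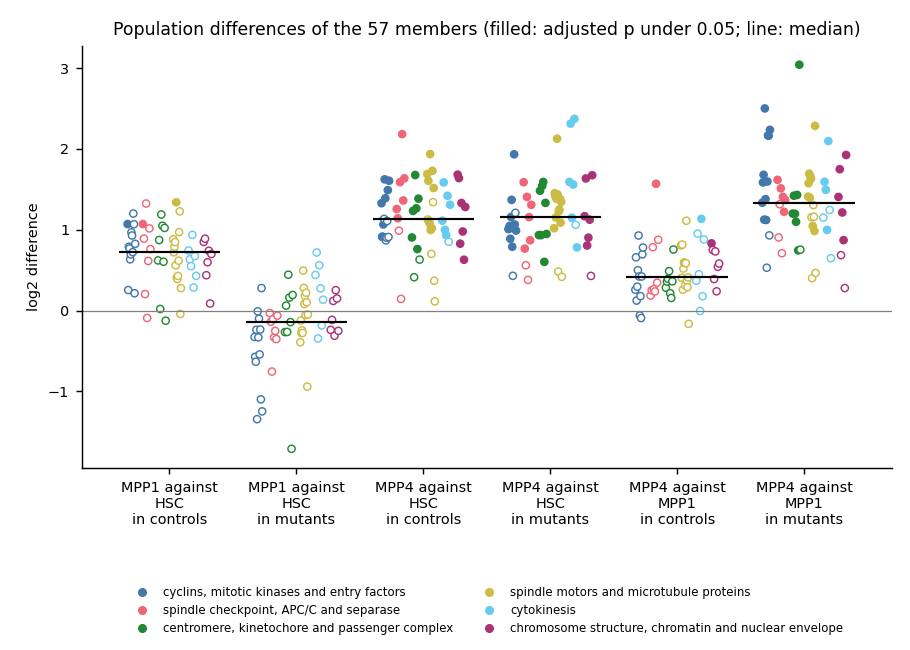
Log2 differences between populations (vertical axis) for the 57 members, coloured by role, in controls and in mutants, with filled points past the adjusted threshold in edgeR and a line at the median. MPP1 stands above HSC in controls (median 0.72) and just below it in mutants (median −0.14), whereas MPP4 stands above HSC by a median of 1.13 and 1.15.

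Other mitotic genes, from lists set beside the members, were examined in the same comparisons. Of 23 further spindle and cytokinesis genes, 21 of 21 tested were higher in MPP4 mutants (median 0.67) and 19 of 20 in HSC mutants (median 0.63), and 8 of 20 in MPP1 mutants (median −0.23). None of these passed in edgeR, and 15, 4 and 1 had an unadjusted p under 0.05 in MPP4, HSC and MPP1, the last one lower. Of 35 further centromere and kinetochore genes, 29 of 35 were higher in MPP4 mutants (median 0.37), 26 of 33 in HSC mutants (median 0.55) and 5 of 29 in MPP1 mutants (median −0.32). At an unadjusted p under 0.05, 7 were higher and 1 lower in MPP4, 10 were higher in HSC and 3 lower in MPP1. Of all genes, 7.11%, 10% and 4.86% had such a p in either direction in MPP4, HSC and MPP1. The 1 that passed was Spc24, a subunit of the Ndc80 kinetochore complex, lower in MPP1 mutants (−2.66, SE 0.41, adjusted p = 0.00115 in edgeR). It went from 83.96 and 113 CPM in MPP1 controls to 10.3 and 18.4 in mutants. In HSC it averaged 43.9 CPM in controls and 33.6 in mutants, with overlap. In control MPP4 against HSC, where 5.82% of all genes were called higher, 18 of the 35 passed, among them Spc24 (1.71) and the passenger subunit Incenp (1.29). Likewise 10 of 22 spindle and cytokinesis genes passed, those with the smallest p being the motor Kif15 (1.87), the citron kinase Cit (1.52) and the abscission protein Cep55 (2.21). A list of 15 genes of the APC/C, which stays active after mitosis into G1, held its subunits and the ubiquitin-conjugating enzyme Ube2s. The median mutant difference was 0.10 over 13 tested in HSC, 0.09 over 13 in MPP1 and 0.04 over 14 in MPP4. It was −0.09 over 14 for MPP4 against HSC controls, where edgeR called none and none had an unadjusted p under 0.05. Condensin and cohesin genes, which shape and hold together chromosomes, had medians of 0.22, 0.01 and 0.12 for the mutant difference. None of them passed in edgeR for the mutant difference. At an unadjusted p under 0.05, 3 were higher and 1 lower in HSC, 0 differed in MPP1 and 4 were higher in MPP4. In MPP4 against HSC controls 7 of 20 passed, beside 5.82% of all genes called higher. Of 18 regulators of mitotic entry and of mitotic transcription, 7 passed in that comparison, beside the same 5.82%. Among them were the APC/C inhibitor Fbxo5 (1.66), the kinase Melk (2.25) and the cyclin Ccnf (1.35). Their mutant differences had medians of 0.34, −0.22 and 0.24, where edgeR called none and 4, 0 and 4 had an unadjusted p under 0.05.

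Foxm1 and Mybl2 (B-Myb), the factors known to switch on these genes in G2, were among the lower transcripts. Foxm1 stood at 13.2, 19.9 and 23.6 CPM in HSC controls and 9.96, 30.1 and 24.5 in mutants, at 19.3 and 32.7 in MPP1 controls and 7.71 and 14.3 in MPP1 mutants, and at 37.3, 23.4, 38.9 and 29.9 in MPP4 controls and 40.1, 31.9, 62.6 and 55.03 in MPP4 mutants. Its mutant differences were 0.16, −1.07 and 0.48, none past the threshold in edgeR, and among mutants it was higher in MPP4 than in HSC (1.30, SE 0.32, adjusted p = 0.00389 in edgeR) and than in MPP1 (2.40, SE 0.48, adjusted p = 0.00117 in edgeR). Mybl2 stood at 4.94, 5.44 and 0 CPM in HSC controls, with no count in the last, where 3 counts stand for 7.87 CPM, and at 15.4, 12.9 and 14.7 in HSC mutants. The HSC controls held 9 counts of it together, and 5.06% of all genes were parted upward in HSC. No mutant comparison called Mybl2 in edgeR, and the mutant values given are those of HSC alone. Mybl2 was higher in MPP4 controls than in HSC controls (2.56, SE 0.56, adjusted p = 0.00187 in edgeR), with 32.3, 19.2, 24.6 and 18.7 CPM in the former. A list of 15 cell cycle brakes had mutant differences with medians of 0.09, −0.08 and 0.40 in HSC, MPP1 and MPP4, and edgeR called none. At an unadjusted p under 0.05, 1 was higher and 1 lower in HSC and likewise in MPP1, and 2 were higher in MPP4. The genes tested were 14, 13 and 13, and 10%, 4.86% and 7.11% of all genes had such a p in either direction. Among the brakes, Cdkn1c (p57), a Cdk inhibitor of quiescent stem cells, was lower in MPP4: it stood at 34.6, 57.1 and 47.2 CPM in HSC controls and 9.49, 3.74, 7.95 and 3.74 in MPP4 controls (−2.51, SE 0.40, adjusted p = 2.93e-05 in edgeR). Its mutant differences were 0.20 in HSC and 0.28 in MPP1, under their SE. Cdkn1b (p27), another Cdk inhibitor, differed between mutants and controls by 0.01, −0.36 and 0.40 in HSC, MPP1 and MPP4, none past the threshold in edgeR. Cdkn1a (p21), which p53 is known to induce, was low, between 0 and 28.1 CPM. Of the comparisons of mutants with controls, it was tested in MPP4 alone (0.45, SE 0.44).

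S phase genes, a list of 67 for replication and nucleotide supply, had medians of the same sign as the members in each population. In HSC mutants 64 of 67 were higher (median 0.54) and the thymidylate synthase Tyms passed (1.53, SE 0.31, adjusted p = 0.0186 in edgeR), and in MPP1 mutants 15 of 66 were higher (median −0.20), where edgeR called none and 5, all lower, had an unadjusted p under 0.05. In MPP4 mutants 43 of 67 were higher with a median of 0.06, no call in edgeR and 2 genes with an unadjusted p under 0.05, whereas the 57 members had a median of 0.67. The mean log2 CPM of the S phase list was 6.52, 6.64, 6.32 and 6.13 in MPP4 controls and 6.53, 6.51, 6.36 and 6.55 in MPP4 mutants, which overlapped. The member mean minus the S phase mean was −0.50, −0.33, 0.02 and 0.24 in MPP4 controls and 0.38, 0.21, 0.50 and 0.50 in MPP4 mutants, higher in the mutants within every batch, though MPP4 control 4 lay just above MPP4 mutant 2. In HSC that gap was −0.29, −0.28 and −0.52 in controls and −0.41, −0.04 and −0.20 in mutants, and in MPP1 −0.13 and −0.16 in controls and −0.25 and −0.17 in mutants. Whether the 2 lists differ was not tested.

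**Figure D5:**
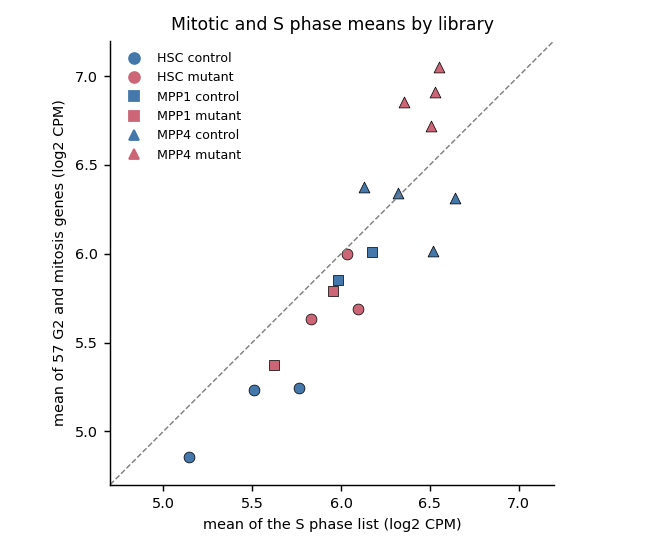
Mean log2 CPM of the 57 members (vertical axis) against that of the S phase list (horizontal axis), 1 point per library, with a dashed line where both are equal. The MPP4 mutants lie above the line by 0.21 to 0.50, and the MPP4 controls lie on both sides of it.

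The authors' deposited tables of DESeq2 results hold their own mutant comparisons for the 57 members. In the authors' deposited table for HSC 55 members had a positive log2 fold change (median 0.54), in that for MPP1 8 (median −0.24) and in that for MPP4 all 57 (median 0.59). Only 1 member had, in the authors' deposited tables, an adjusted p under 0.05, Ube2c in MPP4, with a log2 fold change of 1.25 and an adjusted p of 0.019, beside 0.0889% of the genes with an adjusted p in the authors' deposited table for MPP4. The design behind those tables is not given in the sources used here.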

How the data were processed

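The series holds 18 bulk CEL-Seq2 libraries, a 3′ method that tags each molecule with a molecular identifier. Per the labels' protocols, no RNA was extracted and cells were sorted straight into lysis and reaction buffer. The deposited tables of the authors hold estimated counts per gene, 1 table per population, whole numbers on the grid that correction for identifier collisions gives with 4096 identifiers. The highest value that grid allows, 36909, was reached by no member. The submitters' processing notes name mm10, R 3.4.0 and DESeq2, with the aligner and counter not given in the sources used here. Beside the counts, the authors' deposited tables also hold DESeq2 log2 fold changes, test scores (the Wald statistic) and p-values, per the file headers.

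Counts were scaled by TMM in edgeR 4.0.16 (R 4.3.3, limma 3.58.1), and genes were kept by filterByExpr with a minimum count of 10. Mutants were compared with controls within each population, with the sequencing batch as a term (MPP1 has 1 batch). Populations were compared in a single model of the 18 libraries, blocked by the ID number in the column names. The ID numbers of MPP4 control 2 and MPP4 mutant 2 occur in 1 library each, so these libraries add nothing to the population differences. Those of the batch A libraries have no MPP1 library, so MPP1 and HSC share ID numbers in batch C alone. Tests were edgeR quasi-likelihood tests, with p-values adjusted by Benjamini-Hochberg over all genes tested. The pipeline was also run on simulated counts, which had a fixed spread and no differences of batch or cell make-up between libraries, unlike the libraries here. Mean levels are means of log2 CPM with a prior count of 2. CPM values depend on depth: 3 counts stand for 1.40 to 11.2 CPM. Replicates of every group differed by more than sampling noise. The labels name no animals or cultures behind the replicates, so each p-value reflects library-to-library spread, which may be technical.

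The labels do not say that replicate numbers pair controls with mutants, and the genotypes share no ID number, so the replicate block is an alternative only. The correlations of deviations from the group means were 0.51, 0.23 and 0.25 for the 3 numbers in HSC. They were 0.38, −0.09, 0.40 and −0.15 in MPP4, and MPP1 has 2 numbers. In HSC, replicate 1 is the only number of batch A, and control replicate 2 did not correlate best with mutant replicate 2. The members and the gene lists were chosen with earlier results of these data known. By rule, 18 members are given in every library, as well as up to 8 further members per comparison with the smallest adjusted p among those called, members against the median where 5 or fewer, and up to 4 called genes per other list. Kif23, Racgap1 and Spc24 are also given by library, chosen after their values were seen. Alternatives were other scaling, DESeq2 1.42.0, other filters, other batch terms and blocks, batch C alone, a shared spread, other prior counts and leaving out libraries. Leaving out the 6 libraries high in other cells' markers was added after seeing the data.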

Additional observations from a re-analysis of the deposited data

Results flagged for a closer look

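The mean of the 57 members in MPP4 control 1 was 6.015 on the log2 CPM scale, and the other 3 MPP4 controls lay between 6.32 and 6.37. The gap below the other controls made up 0.836 of the group's whole range, past the critical value for 4 libraries. MPP4 control 1 was also low for the mean of the 8 centromere, kinetochore and passenger complex genes, at 6.31 (gap ratio 0.881). It is the only MPP4 control of batch A, and the batch A mutant, at 6.91, lay within the range of the other mutants, so the within-batch difference was 0.90 there against 0.40 and 0.60 in batches B and C. Of 50 group values looked at in this way these 2 were flagged, which is no more than the 1 in 20 that chance gives. The 8 genes are among the 57, so the 2 values are not separate.

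The mutant minus control difference of the member mean was positive in HSC and MPP4, with every mutant above every control, and negative in MPP1, with both mutants below both controls. The HSC difference exceeded the MPP1 difference by 1.01, and the MPP4 difference exceeded it by 0.98. These gaps of the mean were not tested. All MPP1 libraries were of batch C, and MPP1 control 2 held 31610 CPM of erythroid markers.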

How the results depend on the processing

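The mean over the members kept its sign in all alternatives run: HSC 0.53 to 0.73, MPP1 −0.56 to −0.14 and MPP4 0.54 to 0.68 when libraries were left out in turn. No member was called in MPP1, in either comparison of mutant effects or between MPP1 and HSC mutants under any alternative. In HSC 4 members were called with no filter and 1 with the replicate block, and 0 to 3 when libraries were left out. In MPP4 it was 2 with DESeq2 size factors, 5 with the DESeq2 test, 6 with no filter, 2 with a stricter filter, 2 with a shared spread and 0 to 1 when libraries were left out, and the replicate block gave 0. The median in MPP4 moved from 0.67 to 0.88 without the libraries high in other cells' markers. For MPP4 against HSC controls the count ran from 26 to 45 when ID numbers were left out and was 17 without those libraries and with the batch in place of the ID number, a change that alone gave 37. MPP1 against HSC controls gave 0 with DESeq2, 7 with no filter, 0 with the batch in place of the ID number, which is the block of these comparisons, 0 to 6 when ID numbers were left out and 0 with that batch term and without those libraries. MPP4 against MPP1 controls gave 1 with DESeq2, 2 with the batch in place of the ID number, 0 to 4 when ID numbers were left out and 0 with that batch term and without those libraries. MPP4 against MPP1 mutants gave 20 to 46 and MPP4 against HSC mutants 39 to 50 when ID numbers were left out. The block changed no other call count by over 1.5 times. Over the alternatives 0.0547% to 0.820% of all genes were called in HSC, 0.0107% to 0.369% in MPP4, 3.97% to 12% between MPP4 and HSC controls, 0.0283% to 0.405% between MPP1 and HSC controls, 0.597% to 4.72% between MPP4 and MPP1 controls, 5.03% to 14.9% between MPP4 and HSC mutants and 1.40% to 8.22% between MPP4 and MPP1 mutants. The cause of these changes was not tested, although fewer libraries entered where some were left out.

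Differences that turned sign in an alternative were far from the threshold in the main fits, and several in MPP1 ranged widely when 1 library was left out. Lbr in HSC was −0.13 in batch C alone and without the libraries high in other cells' markers, and −0.13 to 0.25 with libraries left out. The value of Tubb4b, mutant against control in HSC, was −0.0076 in both of the former and −0.0108 to 0.34 in the latter. Lbr in MPP4 was −0.18 in batch C alone, −0.061 without those high libraries and −0.074 to 0.21 with libraries left out, and Lbr in MPP1 was −0.048 with no filter and −0.10 to 0.11. In MPP1, leaving out 1 library gave −0.61 to 0.37 for Mki67, −0.89 to 0.22 for Ccnb1, −0.0083 to 0.15 for Cdc20, −0.72 to 0.21 for Bub1b, −0.34 to 0.22 for Cenpe, −0.59 to 0.029 for Kif11, −0.036 to 0.23 for Hmgb2 and −0.72 to 0.059 for Tubb4b. Without MPP1 control 2, the high library, Mki67 was 0.37, Cenpe 0.22 and Kif11 0.029. Depth limits the least abundant members, such as Cdc25c and Gtse1, whose values stand for a few counts in the shallower libraries.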

Other observations

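Other genes of the cell cycle also differed between the populations. Of the 67 S phase genes, 41 were called higher in MPP4 than in HSC among controls in edgeR, beside 5.82% of all genes. Among these 41 were the DNA ligase Lig1 (1.26), the methylation maintenance factor Uhrf1 (1.44) and Tyms (1.69). Among mutants 18 were called higher, beside 7.04% of all genes. The chromatin remodeller Hells (0.9993), the ubiquitin ligase factor Dtl (0.85) and the ribonucleotide reductase subunit Rrm2 (0.86) had the smallest p there. Whether these 2 counts differ was not tested.

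Of the 15 brakes, 3 were lower and 1 was higher in MPP4 than in HSC among controls in edgeR, beside 4% and 5.82% of all genes. Beside Cdkn1c, the lower ones were Txnip, a thioredoxin-binding protein (−1.37, SE 0.20, adjusted p = 9.5e-06), and Rbl2, the p130 pocket protein of the DREAM complex (−0.87, SE 0.23, adjusted p = 0.0118). The higher one was the antiproliferative factor Btg2 (1.76, SE 0.40, adjusted p = 0.0036). Among mutants 3 brakes were lower and 3 higher in MPP4 in edgeR, beside 5.66% and 7.04% of all genes. The lower ones were Cdkn1c (−2.14), the cyclin G1 gene Ccng1 (−0.79) and Txnip (−0.94, SE 0.20, adjusted p = 0.00095 in edgeR). The higher ones were the Cdk inhibitor Cdkn2c (p18; 1.30, SE 0.31, adjusted p = 0.00351 in edgeR), the cyclin G2 gene Ccng2 (1.51) and Btg2 (1.11).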
